A study of Mus musculus with 12 samples.

Results

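Brown adipose tissue (BAT) of mice lacking Per2 was compared, gene by gene, with BAT of mice carrying the intact gene. The members were all genes named by exactly 1 gene symbol on a transcript that the authors had also tested, each represented by its transcript of highest mean over the 12 arrays: 19933 genes, from 35557 transcripts on the array. The comparison rests on 6 of the 12 arrays of the study, 3 from Per2-/- mice (KO) and 3 from per2+/+ mice (WT), 1 array per labelled biological replicate. All mice were males aged 20 weeks, kept in alternating 12 h light and 12 h dark, fed the same chow (ProLab RMH2500 5P14) without restriction and killed at 1 common time, whose hour the labels do not state. The other 6 arrays came from white adipose tissue (WAT) of the same genotypes, KO and WT, 3 each. The Per2-/- line is that of Bae and colleagues, mutant in the whole body and not in fat alone; the labels give no strain background. Values are linear PLIER intensities (PLIER combines the probes of a transcript into 1 value per array), and p-values measure the spread between these arrays.

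Per2 is a core repressor of the circadian clock. In mammals CLOCK and BMAL1 switch on Per and Cry genes through E-box elements, and PER and CRY proteins return to silence them, so that transcript levels of clock genes swing over the day. Brown fat burns fatty acids and glucose to make heat through the mitochondrial uncoupling protein UCP1, under control of noradrenaline and thyroid hormone, and PER2 is also known to interact with nuclear receptors such as PPARs.

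The BAT arrays carried the signature their label implies. Ucp1 had intensities of 10517, 10961 and 11114 in KO BAT, against 10810.3, 11144 and 10433 in WT BAT. In WAT it had 2554, 2665 and 4449 in KO WAT, against 6.34, 7.05 and 4.76 in WT WAT, so that it was far below BAT in WT WAT and less far below in KO WAT. Median intensities of the 6 BAT arrays lay between 66.0 and 70.3. Rank correlations over all genes were 0.9865 to 0.9874 among the KO BAT arrays, 0.980 to 0.982 among the WT BAT arrays and 0.975 to 0.980 between the genotypes. The median SD of a gene on the log2 scale was 0.103 in KO BAT and 0.14 in WT BAT. In WAT, KO replicate 3 stood apart, with rank correlations of 0.886 to 0.897 with the BAT arrays, against 0.824 to 0.837 for KO WAT replicates 1 and 2. It enters the estimate of spread, so total counts of changed genes are given with and without it. Counts within gene lists are given with it. Several genes that did not pass the BAT test with all arrays passed without it, Elovl3, Dio2, Per1, Ehhadh, Acot2 and Fkbp5 among them.

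Per2 itself had intensities of 138, 151 and 158 in KO BAT, against 174, 158 and 163 in WT BAT (log2 difference −0.14, SE 0.14, adjusted p = 0.773). The highest array labelled Per2-/- lay just under the lowest WT array, and the fitted difference did not pass the test. No label or file used here says whether its probes fall inside the deleted sequence, so this level checks nothing about the genotype labels.

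Between Per2-/- and WT BAT, 343 genes changed in level, 1.72% of those tested: 181 were higher (0.908%) and 162 lower (0.813%) in KO (limma on log2(intensity + 16), adjusted p under 0.05 by Benjamini-Hochberg over all genes). Their median absolute log2 difference was 0.70, a 1.62-fold change. Beyond 2-fold lay 49 rises and 38 falls, and beyond 4-fold 15 rises and 3 falls. The KO and WT arrays of all 343 did not overlap, a separation that 22.5% of all genes showed (14.2% higher, 8.24% lower in KO). Across all genes the median log2 difference was 0.03, and 57.3% of them had a positive difference. The count was 440 (272 of them among the 343) when the 6 BAT arrays were fitted alone, and 1033 (all 343 among them) without KO WAT replicate 3. It was 185, 179 and 165 without KO BAT replicate 1, 2 or 3, and 237, 219 and 223 without WT BAT replicate 1, 2 or 3, so that each KO array and WT replicates 2 and 3 moved it by over 1.5 times. Because the tissue was measured in bulk, fewer cells of a type and less RNA per cell cannot be told apart.

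**Figure D1:**
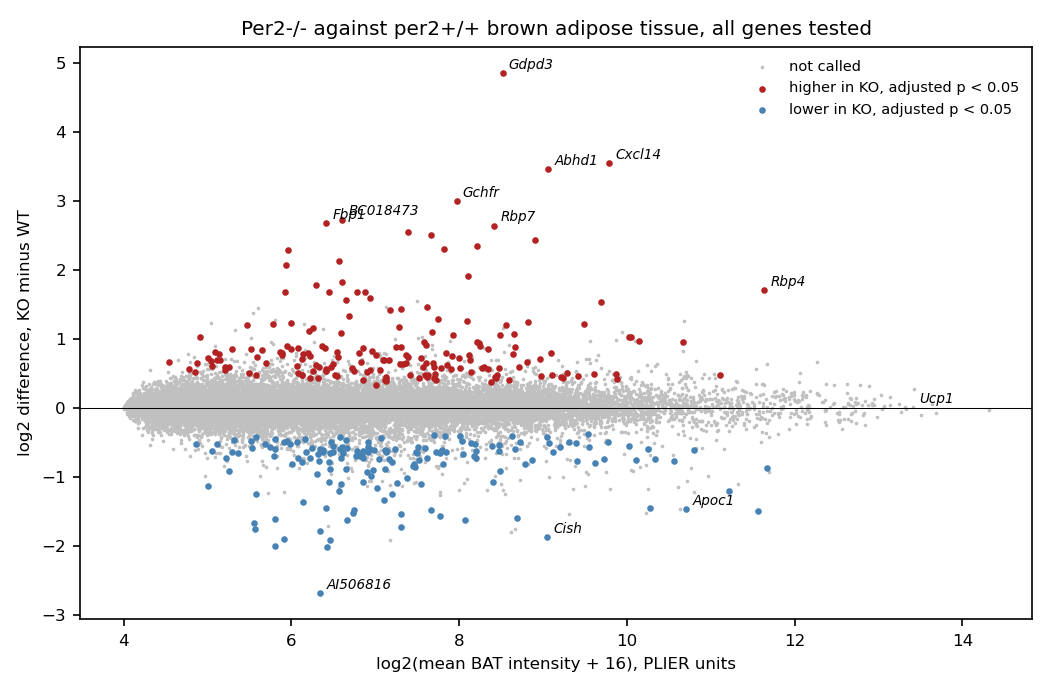
Log2 difference (KO minus WT, y axis) against log2 of mean BAT intensity plus 16 (x axis) for each of the 19933 genes, with called genes in colour. Gdpd3, Cxcl14 and Abhd1 stand highest and AI506816 lowest, while Ucp1, among the brightest transcripts, lies on the zero line.

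The largest rise belonged to a gene of lysophospholipid breakdown. Gdpd3, a glycerophosphodiesterase that releases lysophosphatidic acid from lysophospholipids, had intensities of 719, 714 and 643 in KO BAT, against 5.76, 12.7 and 7.33 in WT BAT (log2 difference 4.86, SE 0.17, adjusted p = 5.69e-08). It was near the bottom of the array's range in all WT tissue and bright in every KO sample, so the size of the rise depends on the added constant (log2 difference 6.24 with 1 and 3.38 with 64 in place of 16). Abhd1, an alpha/beta hydrolase whose substrate is poorly known, had 882, 981 and 1021 in KO BAT, against 86.6, 64.8 and 67.4 in WT BAT (log2 difference 3.46, SE 0.12, adjusted p = 5.69e-08). Abhd3, which cleaves medium-chain and oxidised phosphatidylcholines, had 149.8, 159.8 and 179 in KO BAT, against 43.0, 40.6 and 35.3 in WT BAT (log2 difference 1.69, SE 0.10, adjusted p = 4.11e-06). None of these 3 genes had overlapping groups. Napepld moved the other way: this phospholipase D, which makes N-acylethanolamines such as anandamide, had 74.0, 101 and 69.3 in KO BAT, against 244, 178 and 156 in WT BAT (log2 difference −1.09, SE 0.16, adjusted p = 0.00429). These were the 4 called among 25 measured genes for glycerophosphodiesterases and lysophospholipid enzymes (3 higher, 1 lower), against 1.72% called of all genes. The list's median log2 difference was 0.06, close to that of all genes. This list, like those below, was drawn up with earlier results of these data known, so its share of calls is not a test of the pathway.

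Mfsd2a, which carries lysophosphatidylcholine with docosahexaenoic acid into cells, had intensities of 862, 609 and 843 in KO BAT, against 58.6, 306 and 107 in WT BAT (log2 difference 2.44, SE 0.46, adjusted p = 0.0207). The groups did not overlap, but WT replicate 2 was well above the other WT arrays, and the call was lost in 6 of 24 alternative settings, with adjusted p-values up to 0.0956.

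The promoters of Gdpd3 and Mfsd2a are shown because both hold CACGTT, an E-box variant of the kind known from the Per2 gene's own promoter. Windows run from 250 bases before to 50 bases after the annotated gene start (RefSeq, GRCm38.p6), at chr7:126766164-126766463 on the plus strand for Gdpd3 and chr4:122961139-122961438 on the minus strand for Mfsd2a, 5′ to 3′ along the gene. Capitals mark CACGTT or its reverse complement.
Gdpd3: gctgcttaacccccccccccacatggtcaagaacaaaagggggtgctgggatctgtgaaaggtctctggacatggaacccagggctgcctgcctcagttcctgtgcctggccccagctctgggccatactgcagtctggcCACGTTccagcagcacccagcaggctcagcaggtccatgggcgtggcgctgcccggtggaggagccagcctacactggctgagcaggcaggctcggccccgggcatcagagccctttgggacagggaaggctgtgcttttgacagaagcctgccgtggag
Mfsd2a: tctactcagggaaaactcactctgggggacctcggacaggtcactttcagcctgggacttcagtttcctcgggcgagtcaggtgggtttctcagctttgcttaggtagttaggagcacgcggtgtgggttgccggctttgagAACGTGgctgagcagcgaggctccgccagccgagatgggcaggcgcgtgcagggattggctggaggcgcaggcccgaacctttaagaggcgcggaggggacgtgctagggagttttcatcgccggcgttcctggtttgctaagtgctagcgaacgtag
Each window held 1 match. A window was found for 15609 of the 19933 genes. Searching both strands, CACGTT stood in 885 of these (5.67%), in 21 of the 142 windows of genes called higher (14.8%) and in 5 of the 134 of genes called lower (3.73%). The canonical E-box CACGTG stood in 9.49% of all windows, 7.75% of those of higher and 8.21% of those of lower genes. A D-box, TTANGTAA, stood in 2.42%, 2.11% and 0.746% of the same 3 groups of windows. These shares describe letters in a window and were not tested. Among the 21 are Gdpd3, Mfsd2a, Cyp2e1, Slc27a2 and Trim68, and among the 5 are Ppbp and Ier3. In the clock list, 5 of 11 windows held CACGTG and 3, of Cry1, Cry2 and Nr1d1, held CACGTT.

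Fbp1, the liver-type fructose-1,6-bisphosphatase of gluconeogenesis, had 128, 139.8 and 125 in KO BAT, against 4.01, 8.02 and 8.91 in WT BAT (log2 difference 2.68, SE 0.21, adjusted p = 6.77e-05). Fbp2, the muscle-type enzyme, had 920.1, 1041 and 1003 in KO BAT, against 392, 415 and 436 in WT BAT (log2 difference 1.22, SE 0.14, adjusted p = 0.000768). Both forms of the enzyme were thus higher in KO, with no overlap. Pck2, the mitochondrial phosphoenolpyruvate carboxykinase, had 64.6, 66.8 and 73.3 in KO BAT, against 121, 88.2 and 94.6 in WT BAT (log2 difference −0.47, SE 0.10, adjusted p = 0.0492), a call lost in 16 of 24 alternative settings, with adjusted p-values up to 0.186. Of 26 measured genes of glycolysis and gluconeogenesis, 2 rose and 1 fell, against 1.72% called of all genes, and 10 had KO arrays above all WT arrays, against 14.2% of all genes. Gchfr, the feedback regulator of GTP cyclohydrolase I in tetrahydrobiopterin synthesis, had 362, 399 and 502 in KO BAT, against 101, 14.9 and 27.5 in WT BAT (log2 difference 3.00, SE 0.40, adjusted p = 0.00287), and WT replicate 1 was the brightest of the WT arrays. The cyclohydrolase gene itself, Gch1, did not pass the test (log2 difference 0.26, adjusted p = 0.366), and Gchfr was the only one called of the 7 measured genes of that pathway. Hal, the histidine ammonia-lyase that starts histidine breakdown, had 152, 138 and 124 in KO BAT, against 23, 20.4 and 14.6 in WT BAT (log2 difference 2.13, SE 0.21, adjusted p = 0.000335).

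Cxcl14, a chemokine that brown fat is known to release, had intensities of 1313, 1748 and 1762 in KO BAT, against 122, 144 and 103 in WT BAT (log2 difference 3.54, SE 0.19, adjusted p = 3.20e-06, 11.7-fold). It was the only gene called of the 28 measured on the chemokine list, whose median log2 difference was 0.03. Ppbp, a chemokine precursor that the list leaves out, was called lower, as given below. Serpina12 (vaspin, an adipokine) had 220.2, 248 and 318 in KO BAT, against 15.6, 97.7 and 12.4 in WT BAT (log2 difference 2.56, SE 0.40, adjusted p = 0.00722). Serpina3n, a serine protease inhibitor of the acute phase, had 442, 271 and 273 in KO BAT, against 38.2, 51.7 and 40.1 in WT BAT (log2 difference 2.51, SE 0.27, adjusted p = 0.000565). For Serpina12 WT replicate 2 sat apart from the other WT arrays, below every KO array. Gldn (gliomedin), which gathers sodium channels at nodes of Ranvier, had 422, 522 and 493 in KO BAT, against 86.0, 74.3 and 83.8 in WT BAT (log2 difference 2.34, SE 0.18, adjusted p = 6.11e-05), and the other 14 measured Schwann cell and nerve genes were not called.

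Called genes of the retinoid and xenobiotic list split in direction. Rbp4, the plasma carrier of retinol, was bright in both genotypes, with 4747, 4805 and 4914 in KO BAT, against 1025, 1862 and 1629 in WT BAT (log2 difference 1.71, SE 0.28, adjusted p = 0.0087). Rbp7, an intracellular retinol-binding protein of fat and its vessels, had 566, 580.3 and 569 in KO BAT, against 63.5, 120.4 and 60.8 in WT BAT (log2 difference 2.64, SE 0.33, adjusted p = 0.00181). In both genes the KO arrays lay close together and well above WT. Rarres1, a retinoic acid receptor responder, had 4.95, 2.89 and 7.11 in KO BAT, against 53.4, 85.7 and 33.7 in WT BAT (log2 difference −1.75, SE 0.30, adjusted p = 0.0111), a call lost in 2 of 24 alternative settings, with adjusted p-values up to 0.107. Gsta3, a glutathione transferase, and Cyp2e1, an ethanol and ketone oxidising P450, were called higher at 1.09 and 1.04 (log2 differences, adjusted p = 0.0482 and 0.0487), and each lost the call in 15 of 24 alternative settings. Of 28 measured genes of this list, 4 rose and 1 fell, against 1.72% called of all genes, with a median log2 difference of 0.07.

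The remaining genes among the 15 largest rises were of mixed function. Sycp3, a protein of the meiotic synaptonemal complex, had 314, 404 and 350.0 in KO BAT, against 34.4, 93.5 and 60.2 in WT BAT (log2 difference 2.30, SE 0.30, adjusted p = 0.00269). Gbp2b, an interferon-inducible guanylate-binding protein, had 83.0, 104 and 74.2 in KO BAT, against 0.0162, 2.88 and 14.2 in WT BAT (log2 difference 2.29, SE 0.24, adjusted p = 0.000434). Its WT arrays were at the bottom of the range, and near-identical family members could share its probes. Ripk4, a kinase of epidermal differentiation, had 93.9, 87.1 and 67.9 in KO BAT, against 9.75, 3.36 and 9.69 in WT BAT (log2 difference 2.07, SE 0.16, adjusted p = 6.77e-05). BC018473 had 140.1, 161 and 157 in KO BAT, against 4.39, 17.0 and 8.28 in WT BAT (log2 difference 2.73, SE 0.48, adjusted p = 0.0132), and its call was lost in 7 of 24 alternative settings, with adjusted p-values up to 0.128.

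**Figure D2:**
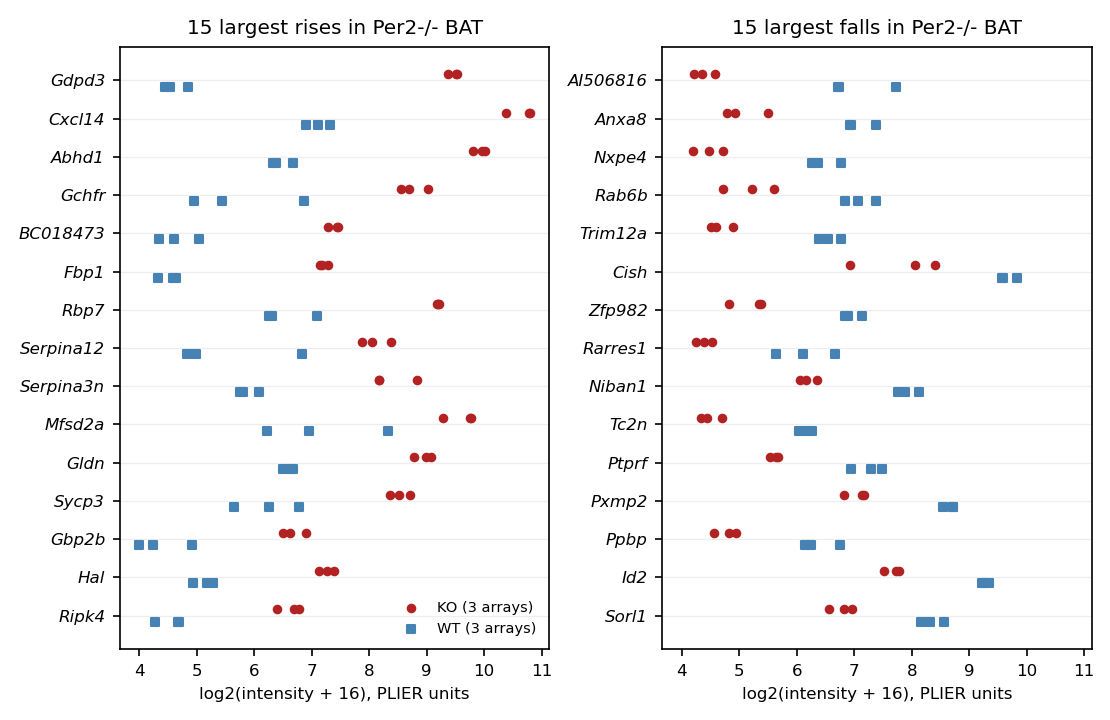
Log2(intensity + 16) on each BAT array for the 15 largest rises (left panel) and 15 largest falls (right panel); circles are the 3 KO arrays, drawn above the squares of the 3 WT arrays. KO and WT arrays do not overlap in any of the 30 genes, and WT arrays of Gchfr, Serpina12 and Mfsd2a spread more widely than their KO arrays.

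The 15 largest falls were also of mixed function. AI506816 had 7.96, 4.29 and 2.46 in KO BAT, against 197, 90.7 and 88.6 in WT BAT (log2 difference −2.68, SE 0.50, adjusted p = 0.0205), the largest fall, with a call lost in 7 of 24 alternative settings, with adjusted p-values up to 0.0956. Anxa8, a calcium- and phospholipid-binding annexin, had 29.0, 14.4 and 11.5 in KO BAT, against 149.8, 106 and 106 in WT BAT (log2 difference −2.01, SE 0.30, adjusted p = 0.00559), and was the only annexin called of 12 measured. Rab6b, a small GTPase of Golgi traffic, had 32.6, 21.5 and 10.3 in KO BAT, against 151, 98.6 and 117 in WT BAT (log2 difference −1.91, SE 0.28, adjusted p = 0.00523). The groups of all 3 were apart. Sorl1, a sorting receptor that binds APOE and lipoprotein lipase, had 78.7, 97.2 and 108 in KO BAT, against 302, 270.4 and 359.5 in WT BAT (log2 difference −1.56, SE 0.22, adjusted p = 0.0035). Id2, a helix-loop-helix protein that blocks DNA binding by its partners, had 204, 196 and 167 in KO BAT, against 578, 595 and 635 in WT BAT (log2 difference −1.60, SE 0.20, adjusted p = 0.00205). In Id2 each genotype's arrays lay within a narrow band. Niban1, a stress-responsive regulator of translation, had 55.9, 65.6 and 50.7 in KO BAT, against 264, 199.7 and 220.1 in WT BAT (log2 difference −1.73, SE 0.15, adjusted p = 0.000104). Pxmp2, a channel of the peroxisomal membrane, had 124, 128 and 97.0 in KO BAT, against 406, 405 and 355 in WT BAT (log2 difference −1.62, SE 0.14, adjusted p = 0.000102). Ppbp, the platelet chemokine precursor CXCL7, had 14.7, 7.47 and 12.1 in KO BAT, against 59.5, 91.4 and 54.3 in WT BAT (log2 difference −1.60, SE 0.15, adjusted p = 0.000228). In each of these the highest KO array lay below the lowest WT array.

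Ptprf, the receptor phosphatase LAR that acts on the insulin receptor, had 35.1, 30.6 and 34.0 in KO BAT, against 164, 108 and 141 in WT BAT (log2 difference −1.63, SE 0.34, adjusted p = 0.037); this call was lost in 12 of 24 alternative settings, with adjusted p-values up to 0.149. The other falls of this size were Nxpe4 (−2.01, adjusted p = 0.00892), Zfp982 (−1.78, adjusted p = 0.000102) and Tc2n (−1.66, adjusted p = 0.00986), given as log2 differences. Nxpe4 and Tc2n were each not called without KO BAT replicate 3.

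No gene of the 3 clock lists passed the test. In the alternative settings Per1 passed the threshold in 4 of 24, Nfil3 and Csnk1e in 3 each, and Bhlhe40 and Dbp in 2 each. Per2, Per3, Cry1, Nr1d1, Arntl and Fbxl21 passed it in 0. Of 13 measured repressors and output factors, Per2 among them, 0 were called, 1 had an unadjusted p under 0.05 and was higher (Per1), 1 was lower (Bhlhe40), and 10 had negative differences. For 5 of the 13 the KO arrays lay below all WT arrays, against 8.24% of all genes, and for 1 above. Per1 had 267, 315 and 306 in KO BAT, against 194, 222 and 167 in WT BAT (log2 difference 0.58, SE 0.18, adjusted p = 0.171). Bhlhe40, a repressor of E-box genes, had 448, 336 and 607 in KO BAT, against 749, 619.9 and 972 in WT BAT (log2 difference −0.75, SE 0.23, adjusted p = 0.159). The arrays of both genes did not overlap between genotypes, as in 22.5% of all genes. Dbp, an output factor acting on D-boxes, had 299, 366 and 301 in KO BAT, against 418, 445 and 538 in WT BAT, also without overlap (log2 difference −0.51, SE 0.24, adjusted p = 0.422). Log2 differences were −0.10 for Cry1, −0.06 for Per3 and −0.15 for Nr1d1 (REV-ERBα), with overlapping arrays.

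Of the 6 measured activators and RORE-driven genes 0 were called. Arntl (BMAL1) had 51.7, 41.8 and 59.6 in KO BAT, against 51.1, 61.8 and 37.9 in WT BAT (log2 difference 0.02, SE 0.23, adjusted p = 0.986), with overlapping arrays. Nfil3, which competes with DBP for D-boxes, had 174, 182 and 215 in KO BAT, against 139, 128 and 88.2 in WT BAT (log2 difference 0.63, SE 0.19, adjusted p = 0.167). Of 8 kinases and adaptors 0 were called, Csnk1e (casein kinase 1 epsilon, which phosphorylates PER) having the smallest unadjusted p (−0.32 on the log2 scale, adjusted p = 0.0974). Fbxl21, an F-box protein that targets CRY, followed (0.31, adjusted p = 0.337). Outside these lists and picked after its values were seen, Arntl2, the BMAL2 paralogue of Arntl, was called lower, with 77.9, 124 and 81.0 in KO BAT, against 143, 145 and 174 in WT BAT (log2 difference −0.64, SE 0.14, adjusted p = 0.0455). With 1 time of day sampled, phase and amplitude are not separated by these levels.

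Thermogenic genes were mostly not called. Of 27 measured brown-fat genes only Slc27a2 was called (3.7%), and the median log2 difference was 0.08. KO arrays lay above all WT arrays for 9 of the 27, against 14.2% of all genes, and below for 4, against 8.24%. An unadjusted p under 0.05 was found for 4 that were higher and 0 that were lower. Slc27a2, a very-long-chain acyl-CoA synthetase and fatty acid transporter, had 2674, 2609 and 2356 in KO BAT, against 1733, 1976 and 1758 in WT BAT (log2 difference 0.48, SE 0.10, adjusted p = 0.0296), a call lost in 9 of 24 alternative settings, with adjusted p-values up to 0.132. Ucp1 differed by 0.01 on the log2 scale (SE 0.17, adjusted p = 0.993). Cidea, which enlarges lipid droplets, had intensities of 6415, 6414 and 6759 in KO BAT, against 6404, 6296 and 5908 in WT BAT (log2 difference 0.07, SE 0.17, adjusted p = 0.92). Elovl3, which elongates very-long-chain fatty acids in cold-activated brown fat, had 2279, 1822 and 2799 in KO BAT, against 782, 1053 and 990.4 in WT BAT (log2 difference 1.26, SE 0.29, adjusted p = 0.0562), higher on every KO array but just short of the threshold. Dio2, the deiodinase that makes active thyroid hormone within the tissue, had 899.7, 803 and 1255 in KO BAT, against 355, 579 and 554 in WT BAT (log2 difference 0.97, SE 0.32, adjusted p = 0.198). Both had KO arrays above all WT arrays. Elovl3 passed the threshold in 8 of 24 alternative settings and Dio2 in 4 of 24, the fit without KO WAT replicate 3 among them for both.

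Among regulators, Ppargc1a (PGC-1α) had 309, 327 and 482 in KO BAT, against 343, 272 and 283 in WT BAT (log2 difference 0.28, SE 0.24, adjusted p = 0.705). Pparg and Ppara differed by −0.03 and 0.04 on the log2 scale (adjusted p = 0.984 and 0.967), both with overlapping arrays. Of 13 genes of adrenergic and thyroid hormone signalling 0 were called, and Pde4d, a cAMP phosphodiesterase, differed by 0.51 (adjusted p = 0.197) on the transcript used. Another transcript of Pde4d had a log2 difference of 0.85 (adjusted p = 0.0119). Adrb3 and Cpt1b were not analysed here.

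Genes listed for fatty acid oxidation did not pass the test. In fatty acid oxidation, 0 of 26 genes were called, 21 had positive differences, against 57.3% of all genes, 5 had an unadjusted p under 0.05 and were higher, and 11 had KO arrays above all WT arrays, against 14.2% of all genes. Mean levels over this list (log2(intensity + 16)) were 11.31, 11.33 and 11.30 on the KO BAT arrays, against 11.17, 11.13 and 11.10 on the WT BAT arrays, the KO arrays all being higher. Ehhadh, the bifunctional enzyme of peroxisomal beta-oxidation, had 1123, 897 and 975 in KO BAT, against 562, 702 and 485 in WT BAT (log2 difference 0.77, SE 0.19, adjusted p = 0.0847). Acot2, a mitochondrial acyl-CoA thioesterase, had 1456, 1466 and 1417 in KO BAT, against 1031, 820.4 and 967 in WT BAT (log2 difference 0.62, SE 0.16, adjusted p = 0.102). In the fit of the 6 BAT arrays alone 4 of the 26 were called. Ehhadh and Acot2 each passed the threshold in 5 of 24 alternative settings, that fit and the one without KO WAT replicate 3 among them.

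De novo lipogenesis had 0 of 20 called, and 9 had KO arrays above all WT arrays, against 14.2% of all genes. Me1, which supplies NADPH for fat synthesis, differed by 0.67 (log2, adjusted p = 0.174), Elovl6 by 0.24 (adjusted p = 0.333) and Fasn by 0.27 (adjusted p = 0.551). Me1 passed the threshold in 5 of 24 alternative settings, the 6 BAT arrays alone and the fit without KO WAT replicate 3 among them. Fasn passed it in 2 and Elovl6 in 0. The PPARG adipocyte list had 0 of 28 called and a median of 0.13, and 11 had KO arrays above all WT arrays, against 14.2% of all genes. Its smallest p belonged to Cebpb, an adipogenic transcription factor (0.46, adjusted p = 0.155). Of 19 genes of sterol synthesis, Sc5d, the sterol C5-desaturase, fell, with 534, 491 and 646 in KO BAT, against 952, 848 and 1132 in WT BAT (log2 difference −0.79, SE 0.15, adjusted p = 0.0221). Its call was lost in 4 of 24 alternative settings, with adjusted p-values up to 0.106. Stard4, a cholesterol carrier, was not called (0.32, adjusted p = 0.233). Creatine, kynurenine and NAD genes had 0 of 17 called, with Nmrk1 at 0.54 and Nmnat1 at 0.57 (log2 differences, adjusted p = 0.126 and 0.227), both enzymes of NAD synthesis.

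Respiratory chain genes had mostly negative differences. Atp5e, the epsilon subunit of ATP synthase, had 995, 1086 and 1224 in KO BAT, against 1761, 2131 and 1750.0 in WT BAT (log2 difference −0.76, SE 0.13, adjusted p = 0.0106) and was the only one called of 44. The call was lost in 3 of 24 alternative settings, with adjusted p-values up to 0.0703. Ndufs5, a complex I subunit outside the list and added here after its values were seen, was also called lower (−1.46 on the log2 scale, adjusted p = 0.00175). Of the 44, 34 had a negative difference and 10 a positive one, against 57.3% positive of all genes, the median was −0.09, and 16 had KO arrays below all WT arrays, against 8.24% of all genes. Ndufa6 of complex I had a log2 difference of −0.36 (adjusted p = 0.147). The 25 measured cytosolic ribosomal protein genes had 22 negative differences and 11 with KO arrays below WT, against 8.24% of all genes. Rpl30 alone was called, with 874, 1041 and 938 in KO BAT, against 1704, 1517 and 1576 in WT BAT (log2 difference −0.74, SE 0.10, adjusted p = 0.00308). Rplp1 had a positive difference (0.35, adjusted p = 0.0958) on the transcript used, and another transcript of Rplp1 passed the threshold (0.49, adjusted p = 0.0368). The TCA cycle had 0 of 16 called and 12 positive differences, against 57.3% positive of all genes.

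**Figure D3:**
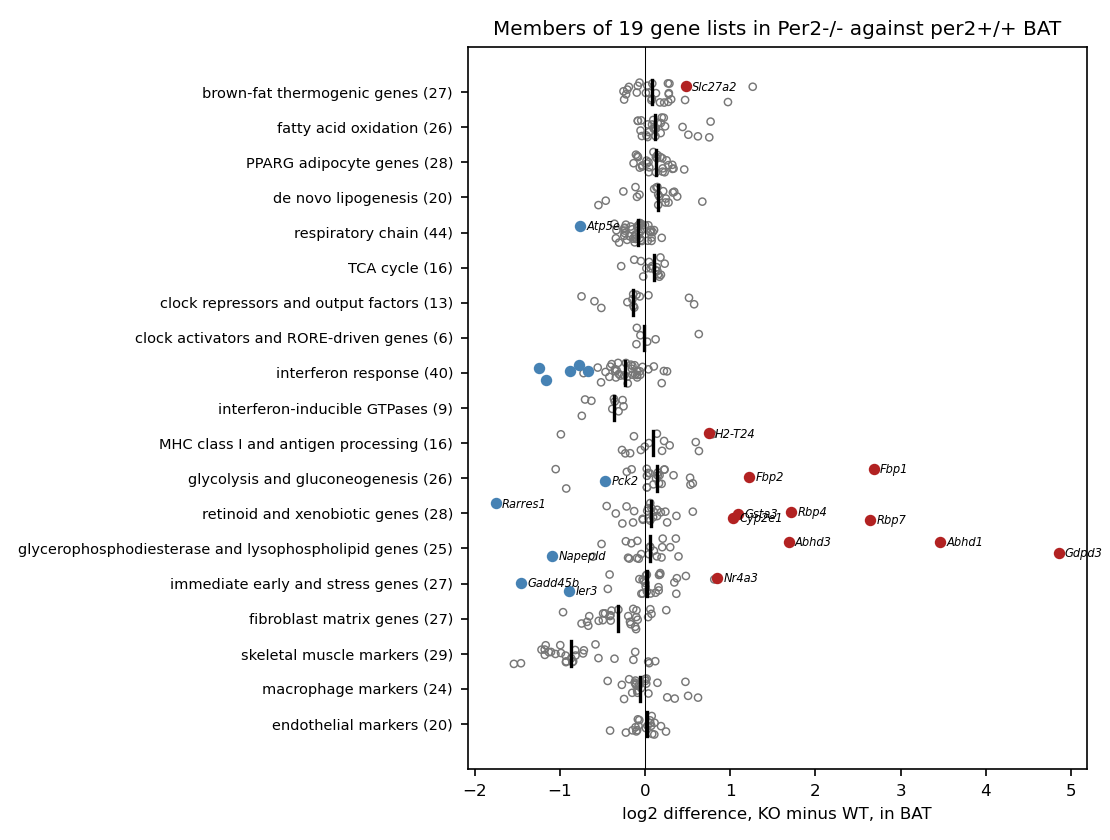
Log2 difference (KO minus WT, x axis) of each measured member of 19 gene lists (y axis, number of members in brackets); filled points are called genes, named except in the interferon list, open points are not called, and black bars mark list medians. Interferon genes lie mostly left of zero with 5 called lower, and skeletal muscle markers have the lowest median, −0.87, with 0 called.

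Adipoq differed by 0.02 and Lep by −0.35 on the log2 scale (adjusted p = 0.989 and 0.794). Apoc1, a component of triglyceride-rich lipoproteins, had 801, 922 and 886 in KO BAT, against 2258, 2802 and 2249 in WT BAT (log2 difference −1.46, SE 0.20, adjusted p = 0.00303), the only call among 14 genes listed for white adipocytes. It was brighter in WT BAT than in WT WAT, where it averaged 428, so its own levels go against that listing. Hoxc8, a positional gene used as a white fat marker, had 129, 49.2 and 76.4 in KO BAT, against 20.9, 29.6 and 25.3 in WT BAT (log2 difference 1.22, SE 0.30, adjusted p = 0.0768), above all WT arrays but not called.

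Of the genes listed here as induced by interferon, 5 fell in KO BAT. Many genes that type I interferon induces carry interferon-stimulated response elements (ISREs) in their promoters. Of 40 measured genes 5 were called, all lower (12.5%, against 0.813% of all genes), 18 had an unadjusted p under 0.05 and were lower, 1 was higher, and 35 had negative differences. The median log2 difference was −0.23, and 18 genes had KO arrays below all WT arrays, against 8.24% of all genes. Over all 19933 genes, 2491 had an unadjusted p under 0.05 in either direction, and 57.3% had a positive difference. Rsad2 (viperin), an antiviral radical SAM enzyme, had 69.4, 62.2 and 60.5 in KO BAT, against 159.6, 153 and 176 in WT BAT (log2 difference −1.16, SE 0.10, adjusted p = 9.34e-05). Cmpk2, its neighbour in the genome and a mitochondrial nucleotide kinase, had 28.5, 38.7 and 39.8 in KO BAT, against 70.0, 66.1 and 80.8 in WT BAT (log2 difference −0.78, SE 0.13, adjusted p = 0.0087). Each genotype's arrays were close together and the groups apart in both. Rtp4, a chaperone of receptors, had 59.5, 92.6 and 63.4 in KO BAT, against 177, 172 and 221 in WT BAT (log2 difference −1.24, SE 0.20, adjusted p = 0.00908). Bst2 (tetherin), which holds budding virions at the cell surface, had 107, 81.2 and 59.4 in KO BAT, against 146, 180.2 and 161 in WT BAT (log2 difference −0.88, SE 0.18, adjusted p = 0.0346). Irf7, the transcription factor that amplifies interferon production, had 53.3, 50.9 and 33.2 in KO BAT, against 83.8, 71.2 and 89.3 in WT BAT (log2 difference −0.67, SE 0.13, adjusted p = 0.0275).

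The calls of Rsad2 and Cmpk2 held in all 23 alternative settings in which each was tested. That of Rtp4 was lost in 2 of 24 alternative settings, with adjusted p-values up to 0.0532. Irf7 lost it in 7 of 24 alternative settings, with adjusted p-values up to 0.112, and Bst2 in 10 of 24 alternative settings, with adjusted p-values up to 0.137. Leaving out single BAT arrays left 2 to 5 members called, and the list's median lay between −0.29 and −0.22 in those fits. Mean log2 levels of the list were 6.21, 6.25 and 6.07 on the KO BAT arrays, against 6.43, 6.44 and 6.55 on the WT BAT arrays, every KO array lying below every WT array.

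The promoters of Rsad2 and Bst2 are shown because each holds a core ISRE match (GAAA, any 2 bases, GAAA) within 250 bases of the gene start (RefSeq, GRCm38.p6, chr12:26456403-26456702 on the minus strand for Rsad2 and chr8:71537423-71537722 on the minus strand for Bst2, 5′ to 3′ along the gene). Capitals mark this motif on either strand.
Rsad2: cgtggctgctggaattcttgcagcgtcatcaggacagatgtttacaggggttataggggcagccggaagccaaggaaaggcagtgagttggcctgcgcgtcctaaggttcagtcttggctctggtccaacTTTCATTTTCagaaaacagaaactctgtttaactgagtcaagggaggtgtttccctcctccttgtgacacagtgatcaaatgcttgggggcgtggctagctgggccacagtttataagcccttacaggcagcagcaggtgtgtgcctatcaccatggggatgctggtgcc
Bst2: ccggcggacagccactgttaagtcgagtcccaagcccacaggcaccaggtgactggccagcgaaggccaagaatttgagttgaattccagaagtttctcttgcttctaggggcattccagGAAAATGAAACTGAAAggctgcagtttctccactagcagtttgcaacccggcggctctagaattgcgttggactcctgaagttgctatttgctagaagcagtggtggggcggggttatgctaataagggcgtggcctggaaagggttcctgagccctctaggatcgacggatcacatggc
Rsad2 had 1 match and Bst2 had 2 overlapping matches in 1 run, which also overlapped 1 match of TTCNNNGAA. Of the 5 called genes 4 had a window, and 2 of the 4 held the motif. It stood in 12 of the 29 windows of interferon list genes (41.4%) and in 607 of all 15609 (3.89%). The share was 7.46% in windows of lower and 5.63% in those of higher genes.

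Related immune genes did not all follow. The 9 interferon-inducible GTPases of the list all had negative differences (median −0.37), and 0 were called. Gbp2b, a member of the same family that the list leaves out, was called higher, as given above. Ifi203, an interferon-inducible gene outside the lists and picked after its values were seen, was also called higher. Gbp3 had 121, 160.5 and 79.3 in KO BAT, against 194, 187 and 238 in WT BAT (log2 difference −0.74, SE 0.21, adjusted p = 0.123). Irgm1 had 81.3, 99.5 and 47.6 in KO BAT, against 145, 109 and 137 in WT BAT (log2 difference −0.70, SE 0.23, adjusted p = 0.202). These were the 2 members whose KO arrays lay below all WT arrays, against 8.24% of all genes. Without KO BAT replicate 3 the median of this list was −0.19. Trim12a, of the Trim5 and Trim30 cluster of restriction factors, had 13.6, 8.23 and 6.67 in KO BAT, against 67.5, 93.1 and 77.3 in WT BAT (log2 difference −1.90, SE 0.14, adjusted p = 5.18e-05). Trim68, in the same list of 8, rose by 0.46 on the log2 scale (adjusted p = 0.0441), a call lost in 13 of 24 alternative settings, with adjusted p-values up to 0.165. H2-T24, a class Ib gene of the major histocompatibility complex, had 181, 196 and 203 in KO BAT, against 109.8, 111 and 106 in WT BAT (log2 difference 0.74, SE 0.14, adjusted p = 0.0239), the only call of 16 class I and antigen processing genes. It lost the call in 6 of 24 alternative settings, with adjusted p-values up to 0.11, and H2-Q10 had 218, 210.2 and 213 in KO BAT, against 462, 418 and 442 in WT BAT (log2 difference −0.99, SE 0.23, adjusted p = 0.0628). H2-Q10 passed the threshold in 7 of 24 alternative settings, the 6 BAT arrays alone and the fit without KO WAT replicate 3 among them. MHC class II had 0 of 8 called.

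Of the growth hormone and STAT5 genes, Cish fell. Cish, the SH2 protein that STAT5 induces to damp growth hormone and cytokine signals, had 323, 249 and 106 in KO BAT, against 899, 747 and 749 in WT BAT (log2 difference −1.87, SE 0.32, adjusted p = 0.0114). KO replicate 3 was the lowest array, and without WT BAT replicate 1 the adjusted p was 0.0529. It was the only one called of 18. Igfals, which carries IGF complexes in plasma, had 67.4, 66.5 and 69.7 in KO BAT, against 89.0, 124 and 119.9 in WT BAT (log2 difference −0.59, SE 0.15, adjusted p = 0.0855). The Cish promoter is shown because it holds the STAT motif TTCNNNGAA, in capitals (both strands; RefSeq, GRCm38.p6, chr9:107296409-107296708, plus strand).
Cish: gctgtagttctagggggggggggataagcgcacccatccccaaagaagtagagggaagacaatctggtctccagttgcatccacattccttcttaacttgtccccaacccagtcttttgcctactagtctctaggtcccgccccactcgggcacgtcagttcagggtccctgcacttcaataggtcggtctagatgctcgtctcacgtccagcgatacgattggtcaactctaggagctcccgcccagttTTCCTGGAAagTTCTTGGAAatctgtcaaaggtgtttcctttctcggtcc
It had 2 matches. TTCNNNGAA stood in 4 of the 15 windows of this list and in 8.98% of all windows.

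Of 27 immediate early and stress genes, 1 rose and 2 fell, against 1.72% called of all genes. Nr4a3, an orphan nuclear receptor induced by adrenergic signals, had 56.9, 48.1 and 41.0 in KO BAT, against 15.5, 19.1 and 25.6 in WT BAT (log2 difference 0.85, SE 0.13, adjusted p = 0.00528). Gadd45b, a stress sensor, had 26.7, 44.7 and 17.6 in KO BAT, against 119.6, 70.8 and 136 in WT BAT (log2 difference −1.45, SE 0.23, adjusted p = 0.00795). Ier3 had 49.8, 35.3 and 53.1 in KO BAT, against 108, 95.2 and 91.6 in WT BAT (log2 difference −0.89, SE 0.15, adjusted p = 0.0101). The groups of all 3 did not overlap. The glucocorticoid list had 0 of 17 called and a median of 0.19. Fkbp5, the immunophilin that glucocorticoids induce, had 256, 261 and 220.4 in KO BAT, against 159, 136 and 96.6 in WT BAT (log2 difference 0.86, SE 0.22, adjusted p = 0.0957). Mean levels of this list were 8.92, 9.08 and 9.01 on the KO BAT arrays, against 8.79, 8.80 and 8.70 on the WT BAT arrays, with KO arrays all higher. In the unfolded protein list of 25, Chac1, a glutathione-degrading enzyme of the ATF4 arm, fell by 0.63 on the log2 scale (adjusted p = 0.0174), a call lost in 6 of 23 alternative settings, with adjusted p-values up to 0.0819. Xbp1 was not called (−0.51, adjusted p = 0.0647). In the cell cycle list of 32, Mcm6 of the replicative helicase had 10.4, 16.4 and 10.1 in KO BAT, against 53.7, 49.2 and 50.1 in WT BAT (log2 difference −1.25, SE 0.13, adjusted p = 0.000397), and Rrm1 was not called (0.42, adjusted p = 0.0945).

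Markers of other cells that a brown fat pad can hold were measured beside these results. Of 29 skeletal muscle genes 0 were called and 26 had negative differences, with a median of −0.87. Mean log2 levels of the list were 7.74, 9.03 and 8.10 on the KO BAT arrays, against 8.27, 8.98 and 10.01 on the WT BAT arrays. The groups overlapped, WT replicate 3 was the highest array, and none of the 29 separated by genotype. Summed intensities over the list were 8532 to 25549 in KO BAT and 14166 to 56148 in WT BAT. Mylpf, a fast myosin light chain, had 172, 508 and 198 in KO BAT, against 366, 771 and 1708 in WT BAT (log2 difference −1.54, SE 0.49, adjusted p = 0.183). Pvalb, the calcium buffer of fast fibres, had 482, 1346 and 524 in KO BAT, against 1009.9, 1659 and 4396 in WT BAT (log2 difference −1.46, SE 0.51, adjusted p = 0.243). Without WT BAT replicate 3 the list's median was −0.37, and without KO BAT replicate 2 or WT BAT replicate 1 it was −1.41 and −1.39. The part of muscle in the calls was not tested; without WT BAT replicate 3, 223 genes were called, 197 of them among the 343.

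Fibroblast matrix genes had 0 of 27 called, 7 lower with an unadjusted p under 0.05, and a median of −0.31. For 13 of them the KO arrays lay below all WT arrays, against 8.24% of all genes. Summed intensities were 9408 to 10410.1 in KO BAT and 12100.4 to 15281 in WT BAT. Col1a1, a chain of type I collagen, had 546, 405 and 498 in KO BAT, against 878, 797 and 1224 in WT BAT (log2 difference −0.96, SE 0.23, adjusted p = 0.0686), and Sparc, a collagen-binding protein, had 2577, 2440.5 and 2616 in KO BAT, against 3511, 3198 and 4132 in WT BAT (log2 difference −0.50, SE 0.16, adjusted p = 0.197). In the fit of the 6 BAT arrays alone 2 of the 27 were called. Their part in the other falls was not tested.

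Macrophage (24 genes), lymphocyte (26), endothelial (20), mesothelial (12), erythroid (5) and mast cell or granulocyte (16) markers had 0 called. Their medians lay between −0.06 and 0.02. Summed macrophage markers were 1893 to 2550.5 in KO BAT and 1862 to 2546 in WT BAT. Itgam and Itgax, integrins of myeloid cells, had log2 differences of 0.62 and 0.35 (adjusted p = 0.235 and 0.287). Cd3d was at 0.27 (adjusted p = 0.273), Emcn at −0.41 (adjusted p = 0.305), Kit at −0.88 (adjusted p = 0.205) and Siglecf at 0.25 (adjusted p = 0.334). Among 18 keratinocyte and skin markers Anxa8 alone was called, and Lor was at 0.32 (adjusted p = 0.107).

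**Figure D4:**
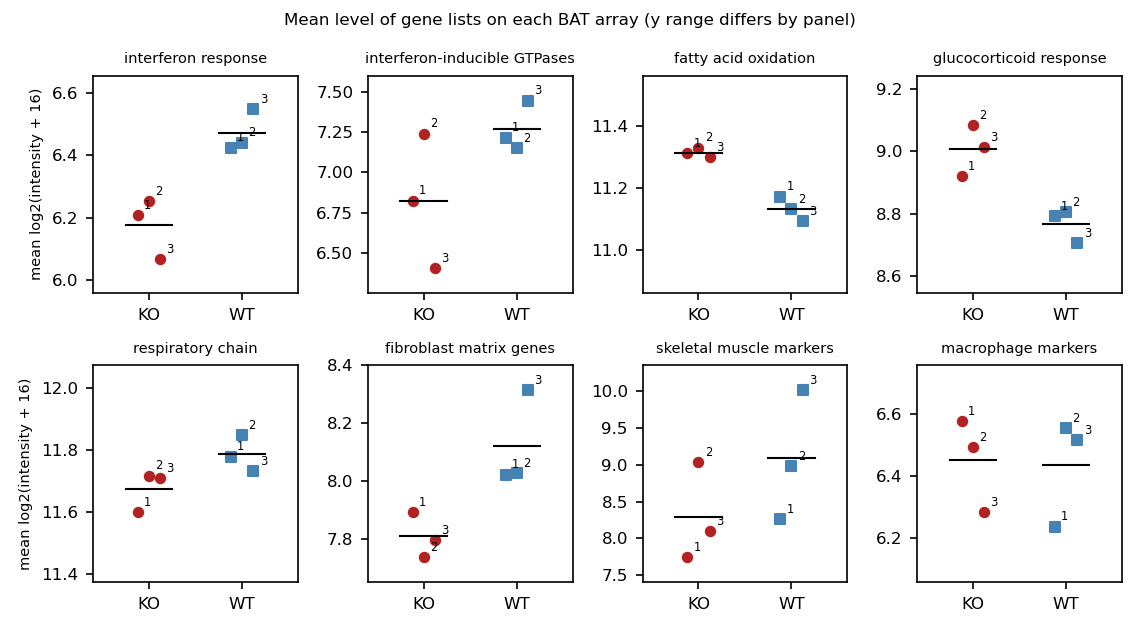
Mean log2(intensity + 16) of 8 gene lists (y axis, range set per panel) on each KO (left) and WT (right) BAT array, with the replicate number beside each point and a bar at the group mean. KO arrays lie apart from WT in the interferon, fatty acid oxidation, glucocorticoid, respiratory chain and matrix lists, while skeletal muscle, interferon-inducible GTPase and macrophage lists overlap.

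The same genotypes in WAT show which changes differed between the tissues. In WAT 482 genes were called (2.42%). Of the 343 BAT calls 83 were also called in WAT, 24.2% of the BAT and 17.2% of the WAT calls: 42 were higher in both, 38 lower in both and 3 opposite. The difference between the tissues in the KO effect was itself tested, and 118 genes passed (0.592%), 46 of them among the BAT calls (25 higher and 21 lower in KO BAT). Of these 46, 36 were not called in WAT, 7 were called in the same direction and 3 in the opposite one. The 46 became 158 without KO WAT replicate 3, 21 to 39 without single BAT arrays, and 35 and 54 with added constants of 1 and 64.

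Cxcl14 rose more in BAT, by 3.02 (BAT minus WAT, adjusted p = 0.000248), and had 164, 209 and 303 in KO WAT, against 142, 147 and 153 in WT WAT. Fbp1 and Gldn differed by 3.12 (BAT minus WAT, adjusted p = 0.000405) and 3.03 (BAT minus WAT, adjusted p = 0.000106), neither being called in WAT. Abhd3 and Abhd1 rose in both tissues and more in BAT, by 1.28 (BAT minus WAT, adjusted p = 0.00102) and 1.47 (BAT minus WAT, adjusted p = 0.00228). In Rsad2, Niban1, Pxmp2, Ppbp and Anxa8 the KO effect was more negative in BAT by the same test, and none of them was called in WAT. Ppbp averaged 10.4 in KO WAT and 15.4 in WT WAT, at the bottom of the range, so a fall could hardly show there. The difference was −1.08 (BAT minus WAT, adjusted p = 0.00379) for Rsad2, −1.45 (BAT minus WAT, adjusted p = 0.0087) for Niban1, −1.50 (BAT minus WAT, adjusted p = 0.00458) for Pxmp2, −1.35 (BAT minus WAT, adjusted p = 0.0155) for Ppbp and −2.64 (BAT minus WAT, adjusted p = 0.0177) for Anxa8. The rise of Slc27a2 was smaller in BAT, at −0.97 (BAT minus WAT, adjusted p = 0.00857). Trim12a passed the same test at 1.03 (BAT minus WAT, adjusted p = 0.0425), but its KO arrays were at the bottom of the range in both tissues, with 8.73, 4.74 and 2.82 in KO WAT, against 152, 135 and 152 in WT WAT, so its falls cannot be ranked. BC018473 passed it too, at −3.71 (BAT minus WAT, adjusted p = 0.0348), with 2997, 2487 and 579.6 in KO WAT, against 0.0478, 10.7 and 0.0648 in WT WAT. Its WT arrays were at the bottom of the range in both tissues, so the size of each rise depends on the added constant.

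Opposite calls were those of Haus4, Lrrc23 and Cmbl, named for being the only 3. Haus4, a subunit of the augmin complex of the spindle, had 73.0, 82.4 and 65.9 in KO BAT, against 26.4, 20.7 and 19.6 in WT BAT (log2 difference 1.23, SE 0.12, adjusted p = 0.000335). In WAT its log2 difference was −1.60 (adjusted p = 2.30e-05). Lrrc23 rose in BAT and fell in WAT, and Cmbl, a hydrolase that activates prodrugs, fell in BAT and rose in WAT.

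For other large changes the difference between tissues did not pass the test with all arrays. Without KO WAT replicate 3 it passed for 14 more of the named BAT calls, Gdpd3 (0.92, adjusted p = 0.00822), Serpina3n (2.15), Mfsd2a (2.87), Ripk4 (1.16), Rab6b (−2.15), Id2 (−1.21) and Ptprf (−1.90) among them. Gdpd3 was at log2 difference 4.17 in WAT, adjusted p = 1.52e-07, with 468, 448 and 756 in KO WAT, against 14.2, 15.7 and 15.3 in WT WAT. Rbp7 (log2 difference 2.62 in WAT, adjusted p = 0.00111), Hal (log2 difference 2.85 in WAT, adjusted p = 2.01e-05), Sycp3 (log2 difference 2.2 in WAT, adjusted p = 0.00234) and Gbp2b (log2 difference 2.54 in WAT, adjusted p = 0.000123) were also called higher in both. Called lower in both were AI506816 (log2 difference −4.17 in WAT, adjusted p = 0.000892), Rarres1 (log2 difference −3.23 in WAT, adjusted p = 0.000119) and Mcm6 (log2 difference −1.08 in WAT, adjusted p = 0.000737).

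**Figure D5:**
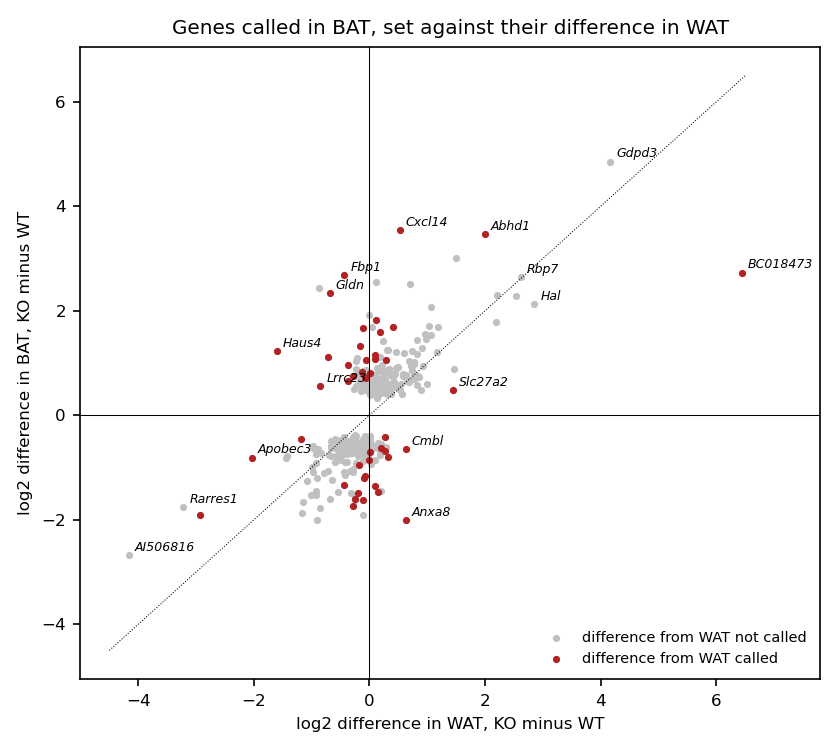
Log2 difference KO minus WT in BAT (y axis) against the same in WAT (x axis) for the 343 genes called in BAT; red points are the 46 whose difference between the tissues passed the test, and the dotted line marks equal differences. Cxcl14, Fbp1 and Gldn lie high near the middle of the x axis, Gdpd3 and Hal lie near the line, and Haus4 lies at upper left.

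The genes around Per2 were counted as well. Of the 100 tested genes within 50 places of Per2 in the gene order of GRCm38.p6, 3 were called (3%, against 1.73% of all placed genes), all higher: Chrnd, Ackr3 and Farp2. Within 200 places 10 of 400 were called (2.5%), 7 higher and 3 lower. Beside those named these were Erbb4, Wdfy1, Zranb3, Mcm6, Pm20d1, Snrpe and Rabif.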

How the data were processed

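RNA of BAT and WAT from KO and WT males was measured on 12 1-colour Affymetrix arrays, 3 per group; per the labels' protocols it was isolated with TRIzol and RNeasy columns. The deposited intensity per transcript was made by the authors with PLIER, per the submitters' processing notes, on a linear scale; no source used here gives the scaling between arrays or the genome build of the design. The deposited p-values and the score that the authors call fold come from Cyber-T 8.01 with hdarray 3.71 in R 2.2.1, per the file headers, without adjustment. Of 35557 transcripts 28925 were tested by the authors; 21776 of these name 1 gene, giving 19933 genes by the highest mean (993 genes had several transcripts).

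From these, limma 3.58.1 (R 4.3.3) was run on log2(intensity + 16), 4 group means being fitted to all 12 arrays (8 residual and 3.51 prior degrees of freedom), and adjusted by Benjamini-Hochberg; a call is an adjusted p under 0.05. The added 16 shrinks log2 differences of dim genes. The array has no read depth, and 3 arrays per group limit the precision: the median SE of a BAT difference was 0.127. The 40 gene lists (773 measured genes, 35 called; 20 lists had 0 called) were written from general knowledge, and they and the members were chosen with earlier results of these data known. Genes named are Per2, the 15 largest called rises and falls without overlap, per list up to 2 members with the smallest unadjusted p under 0.05 and all called members up to 12, and a fixed set of clock and fat genes; others are said to be chosen after their values were seen. Alternatives were other added constants, normalizations, variance models, array weights, array and gene subsets, a replicate block, the authors' p-values and leaving out each array. The script was tested on simulated data. Promoters come from RefSeq on GRCm38.p6.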

Additional observations from a re-analysis of the deposited data

Results flagged for a closer look

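The KO effect differed between the tissues, by the test of that difference, in 16 of the genes named by the rule. It was more positive in BAT for Cxcl14, 3.02 (BAT minus WAT, adjusted p = 0.000248), for Fbp1, 3.12 (BAT minus WAT, adjusted p = 0.000405), and for Gldn, 3.03 (BAT minus WAT, adjusted p = 0.000106), all log2 values. The same held for Abhd1, 1.47 (BAT minus WAT, adjusted p = 0.00228), and Abhd3, 1.28 (BAT minus WAT, adjusted p = 0.00102). Trim12a also passed, 1.03 (BAT minus WAT, adjusted p = 0.0425), but its KO arrays were at the bottom of the range in both tissues, so the sizes of its falls cannot be ranked. More negative in BAT were the effects on Anxa8, −2.64 (BAT minus WAT, adjusted p = 0.0177), Niban1, −1.45 (BAT minus WAT, adjusted p = 0.0087), Pxmp2, −1.50 (BAT minus WAT, adjusted p = 0.00458), Ppbp, −1.35 (BAT minus WAT, adjusted p = 0.0155), and Rsad2, −1.08 (BAT minus WAT, adjusted p = 0.00379). Ppbp was at the bottom of the range in WAT in both genotypes, so a fall could hardly show there. For Slc27a2, −0.97 (BAT minus WAT, adjusted p = 0.00857), the rise was smaller in BAT, and BC018473 gave −3.71 (BAT minus WAT, adjusted p = 0.0348), with WT at the bottom of the range in both tissues. Ucp1, −7.14 (BAT minus WAT, adjusted p = 5.62e-08), Cidea, −5.56 (BAT minus WAT, adjusted p = 4.44e-07), and Elovl3, −2.63 (BAT minus WAT, adjusted p = 0.0147), were not called in BAT and were higher in KO WAT, where Ucp1 had 2554, 2665 and 4449 in KO WAT, against 6.34, 7.05 and 4.76 in WT WAT. Without KO WAT replicate 3, which stood apart, the differences were 3.24 for Cxcl14, 2.87 for Fbp1, 3.21 for Gldn and −4.44 for BC018473, each still past the threshold, and 14 more of the named BAT calls passed it.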

How the results depend on the processing

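The 343 calls (181 higher, 162 lower, 46 differing from WAT) stayed within 1.5 times with added constants of 1 and 64, median centring, quantile normalization, a trend with robust variances, the BAT arrays alone and all transcripts. Array weights gave 713 calls (406 higher, 307 lower, 157 differing), and the authors' deposited p-values, adjusted here, gave 1068 (653 and 415) on linear and 1072 (596 and 476) on log values. Brighter genes alone gave 29 differing from WAT. With the replicate number as a block the counts were 175, 91, 84 and 15 (169 of the 175 among the 343). Nr4a3 and Gadd45b lost their calls there. Same-numbered KO and WT BAT arrays correlated at 0.09, 0.05 and −0.003, but these cannot share a mouse, so the values say nothing about that. Same-numbered BAT and WAT arrays could share a mouse. They correlated at 0.01, 0.07 and −0.03 in KO and at −0.04, −0.12 and 0.06 in WT. The labels do not say whether they do, and the numbers were not taken to pair animals. The main fit, with its test of BAT minus WAT, therefore treated all arrays as independent. Leaving out 1 array at a time gave 165 to 1033 calls (87 to 608 higher, 78 to 425 lower, 21 to 158 differing), the highest without KO WAT replicate 3. Without a WT WAT array the calls were 263, 245 and 260, and those differing from WAT 22 to 25. Of 54 called genes that were named, 31 kept the call in each setting run for them, 23 lost it in at least 1, and 0 of the named called genes changed direction; 35 of the 54 not called passed the threshold in at least 1 setting. The causes were not tested. The depth of signal limits dim genes, whose differences shrink with the constant: Gdpd3 ranged over 3.38 to 6.33.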

Other observations

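Other genes called in BAT, chosen after their values were seen, include lipoprotein, mitochondrial and redox genes outside the lists. Apoe, the ligand of lipoprotein receptors and the neighbour of Apoc1, had 1858, 1504 and 1359.8 in KO BAT, against 4804, 4291 and 4166 in WT BAT (log2 difference −1.49, SE 0.15, adjusted p = 0.000395). Gpx3, the plasma glutathione peroxidase, had 2269, 2417 and 2221 in KO BAT, against 4405, 4343 and 3869 in WT BAT (log2 difference −0.86, SE 0.17, adjusted p = 0.026), whereas Gsr, the glutathione reductase, had 472, 459.9 and 480.1 in KO BAT, against 234, 208 and 209 in WT BAT (log2 difference 1.06, SE 0.08, adjusted p = 5.18e-05). Mrpl20, of the mitochondrial ribosome, had 1095, 1204 and 1336 in KO BAT, against 382, 470.2 and 367 in WT BAT (log2 difference 1.54, SE 0.16, adjusted p = 0.000565), and Ndufs5, of complex I, had 535, 717 and 692 in KO BAT, against 1782, 1911 and 1687 in WT BAT (log2 difference −1.46, SE 0.18, adjusted p = 0.00175). Esr1, the estrogen receptor alpha, fell, with 249, 240.4 and 206 in KO BAT, against 538, 371 and 454 in WT BAT (log2 difference −0.91, SE 0.14, adjusted p = 0.00574). Aqp11, an intracellular aquaporin, had 143, 113 and 147 in KO BAT, against 43.5, 22.7 and 16.3 in WT BAT (log2 difference 1.83, SE 0.18, adjusted p = 0.000395), and Mc2r, the corticotropin receptor, had 125, 141 and 136 in KO BAT, against 31.2, 31.7 and 42.3 in WT BAT (log2 difference 1.56, SE 0.32, adjusted p = 0.0332).

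Some calls lay beside each other in the genome. Among the 343, 17 pairs were direct neighbours in the order of tested genes, 10 with the same and 7 with opposite directions. Same-direction pairs were Rsad2 with Cmpk2, Fbp2 with Fbp1, Apoc1 with Apoe, St6galnac2 with BC018473, Hdhd3 with Alad and Sorl1 with Sc5d, among others. Opposite pairs included Zfp991 (log2 difference 1.33) with Zfp982 (−1.78) and Ddr1 (0.87) with Ier3 (−0.89). The densest stretch of 50 tested genes held 8 calls (Ngrn, Hddc3, Man2a2, Fsd2, Whamm, Tm6sf1, Adamtsl3 and Fah), and the next held 7, among them Rbp7, Zfp982 and Zfp991, against 1.73% of all placed genes. These stretches were found by looking for calls, and how many chance would give was not computed. Probes shared between similar neighbouring genes were not examined.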
